A study of Sus scrofa with 9 samples.

Results

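Matrix proteases cut the proteins around a cell, and their inhibitors hold that cutting in check. Described here are 10 such genes in cultured porcine immature Sertoli cells: the ADAMTS proteases ADAMTS1, ADAMTS4, ADAMTS5 and ADAMTS9, the matrix metalloproteinases MMP2 and MMP14, the urokinase gene PLAU, and the tissue inhibitors of metalloproteinases TIMP1, TIMP2 and TIMP3. They were taken by gene name from a table of 20681 genes. A row was found for 9 of them, and MMP2 was not analysed here. The other 9 genes overlapped the gene of the same symbol in the Sscrofa11.1 annotation, and 7 were expressed highly enough to be tested among 11479 genes.

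Sertoli cells line the seminiferous cords and nurse germ cells. These were isolated from fetal testes, 80 to 90 days into gestation, and were seeded 6 h before heat in medium with 10% serum at 37 °C and 5% CO2. The control group was collected before any heat, the HS0.5 group after 0.5 h at 43 °C with 0 h of recovery, and the HS0.5-R36 group after that exposure followed by 36 h back at 37 °C, with 3 libraries in each group. An unheated group of the later time was not analysed here, so an effect of the added 36 h in culture cannot be told apart from recovery. The labels do not say whether libraries came from separate cultures or animals, so every p-value measures only the spread between these libraries, which may be technical.

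ADAMTS proteases are secreted and cut proteoglycans such as versican and aggrecan. MMP14 sits in the cell membrane, cuts collagen and, with TIMP2 as a bridge, activates the secreted gelatinase MMP2. Urokinase, bound to its receptor, turns plasminogen into plasmin, which cuts fibrin and activates other proteases. TIMPs bind the active site of metalloproteinases: TIMP3 is held in the matrix and also blocks ADAMTS proteases, and TIMP1 is a weak inhibitor of MMP14. In the testis, the basement membrane and the junctions of Sertoli cells are remodelled by such proteases as germ cells move.

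Levels are FPKM, fragments scaled to gene length and to library size as deposited by the authors, and therefore allow genes to be compared per length. The 9 libraries held 18110565 to 21034021 reads, recovered from the FPKM and the gene lengths. Control replicate 2 lay apart from the other controls on the second principal component, at 41.2 against 6.11 and 1.53. In that library the 1147 shortest tested genes were a median of 0.39 log2 higher and the 1147 longest differed by a median of -0.28 log2 from the other controls. The Sertoli genes SOX9, WT1 and AMH were detected in all groups. SOX9 averaged 6.47 FPKM in control, 8.17 in HS0.5 libraries and 1.24 in HS0.5-R36, WT1 averaged 7.96 in control, 9.83 in HS0.5 libraries and 3.78 in HS0.5-R36, and AMH averaged 22.3 in control, 19.3 in HS0.5 libraries and 8.09 in HS0.5-R36. All 3 were thus lowest in HS0.5-R36, whereas DMRT1 and INHA were listed at 0 in every control and HS0.5 library. NR5A1 averaged at most 0.0281 FPKM in any group and DHH at most 0.0861. Of the 10 Sertoli genes with a row, 6 averaged at least 1 FPKM in some group. GATA4, FSHR and CLDN11 were not analysed here. The 10 Sertoli genes with a row, of 14 listed, summed to 3705 to 4856 FPKM in control, 4057 to 4096 in the HS0.5 libraries and 1221 to 1357 in HS0.5-R36, mostly VIM. Markers of epithelium and kidney tubule were detected for all 6 of 8 listed genes that had a row, summing to 436 to 627 FPKM in control, 455 to 464 in HS0.5 libraries and 426 to 436 in HS0.5-R36. The fibroblast list summed to 1465 to 1631 FPKM in control, 1580 to 1646 in HS0.5 libraries and 1966 to 2134 in HS0.5-R36, of which COL1A2 made up nearly all, and the fibroblast receptor PDGFRA averaged at most 0.0174 FPKM. The peritubular myoid and smooth muscle list summed to 645 to 979 FPKM in control, 632 to 690 in HS0.5 libraries and 131 to 171 in HS0.5-R36, carried by TAGLN, while ACTA2 averaged at most 0.239 and MYH11 at most 0.00667 FPKM. The macrophage and leukocyte list summed to 6.34 to 8.56 FPKM in control, 5.99 to 6.70 in HS0.5 libraries and 9.76 to 10.4 in HS0.5-R36, with CSF1R averaging at most 0.0212. The part of these cell types in the results below was not tested. In bulk RNA, fewer cells of a type and less RNA per cell cannot be told apart.

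**Figure D1:**
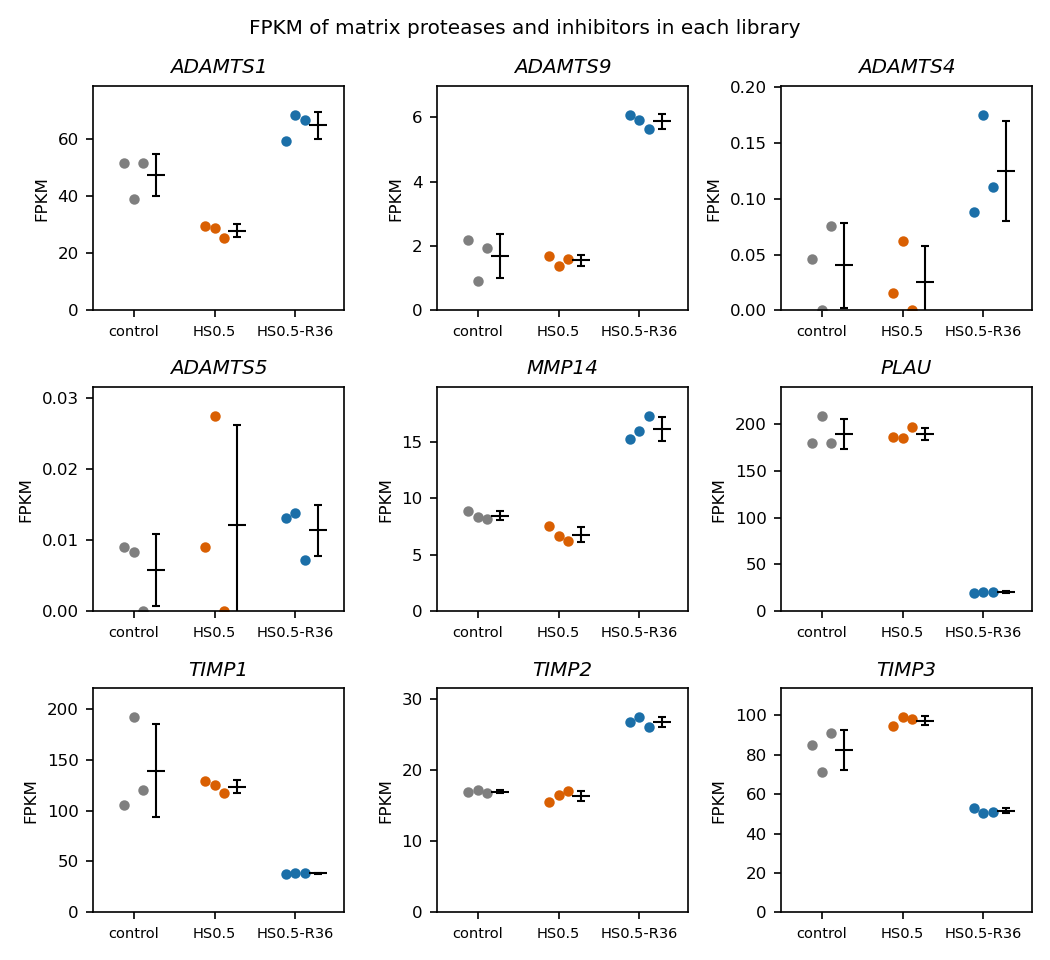
FPKM (linear axes from 0) of the 9 genes with a row in each library of control, HS0.5 and HS0.5-R36; coloured points are replicates 1 to 3 from left to right, and black marks are the mean with the SD of 3 libraries. ADAMTS1 lies lowest in HS0.5 and highest in HS0.5-R36, PLAU, TIMP1 and TIMP3 lie lowest in HS0.5-R36, and ADAMTS9, MMP14 and TIMP2 lie highest there.

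At the end of the heat exposure, ADAMTS1 was the only one of the 7 tested genes that changed, and it fell, in a comparison where 3.62% of all tested genes changed. By 36 h all 7 differed from control, where 63.1% of all tested genes did. The proteases ADAMTS1, ADAMTS9 and MMP14 and the inhibitor TIMP2 were higher, and the protease PLAU and the inhibitors TIMP1 and TIMP3 were lower. Proteases and inhibitors were each found in both directions.

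In control the order by mean FPKM was PLAU (189), TIMP1 (139), TIMP3 (82.5), ADAMTS1 (47.5), TIMP2 (17.0), MMP14 (8.47) and ADAMTS9 (1.69). Only PLAU and TIMP1 overlapped among neighbours in that order. HS0.5 libraries kept the same order, with no overlap between neighbours. In HS0.5-R36 the order was ADAMTS1 (64.9), TIMP3 (51.5), TIMP1 (38.3), TIMP2 (26.8), PLAU (20.6), MMP14 (16.1) and ADAMTS9 (5.87), again with no overlap between neighbours. ADAMTS1 thereby stood at rank 1 in HS0.5-R36 and at rank 4 in control, and PLAU at rank 5 in HS0.5-R36 and at rank 1 in control.

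ADAMTS1 (ENSSSCG00000012026, chromosome 13, 190276424 to 190286205, minus strand) encodes a protease of versican and aggrecan that in the mouse ovary takes part in ovulation. Its level was 51.8, 39.0 and 51.5 FPKM in the control libraries, 29.6, 28.8 and 25.5 in the HS0.5 libraries and 59.5, 68.4 and 66.9 in the HS0.5-R36 libraries. No pair of groups overlapped: HS0.5 lay lowest and HS0.5-R36 highest. Groups also did not overlap for 40.5% of all tested genes in HS0.5 against control. The share was 66.9% in HS0.5-R36 against control and 75.2% in HS0.5-R36 against HS0.5. Recovered reads summed to 7364 in HS0.5, against 12834 in control.

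In HS0.5 against control, ADAMTS1 fell by 0.73 ± 0.12 on the scale of log2(FPKM + 1) (SE, limma adjusted p = 0.015). It was lower in 3 of 3 libraries. Thus 1 of 7 members passed in this comparison, and it fell, while 3.62% of all tested genes passed and 1.32% passed as falls. Leaving out control replicate 1 ended this call (-0.66, limma adjusted p = 0.055), as did leaving out HS0.5 replicate 2 (-0.76, 0.061) or HS0.5 replicate 3 (-0.67, 0.084). It was also lost with each library rescaled to the same sum (-0.74, 0.066) and in a fit of only these groups (-0.73, 0.059). Without control replicate 2, whose ADAMTS1 level was 0.755 times the mean of the other controls, the fall was -0.87 (0.0018).

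In HS0.5-R36, ADAMTS1 averaged 64.9 ± 4.8 FPKM, against 47.5 ± 7.3 in control (SD, n = 3 each), a rise of 0.45 ± 0.12 log2 (SE, limma adjusted p = 0.0094). Against HS0.5, with 28.0 ± 2.2 FPKM (SD, n = 3), the rise was 1.19 ± 0.12 log2 (SE, limma adjusted p = 2.8e-05). ADAMTS1 was therefore below control at the end of heat and above it at 36 h. Without control replicate 2 the rise over control was 0.32 (limma adjusted p = 0.0079), and with rescaled libraries it was 0.81 (0.0031), a value 0.55 above the median of all genes under that scaling, compared with 0.52 above it in the deposited scale. The rise was 0.98 after quantile normalization and 0.78 in a voom fit on recovered reads.

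Genes with a course most like that of ADAMTS1 were sought among 10105 tested genes with a symbol, by the Euclidean distance between centred log2(FPKM + 1) values over the 9 libraries. The nearest were TRIB1, which encodes a pseudokinase (distance 0.311), SNAPIN, a gene of vesicle transport (0.432) and the Notch ligand gene JAG2 (0.465). TRIB1 averaged 18.0 FPKM in control, 10.2 in HS0.5 libraries and 26.2 in HS0.5-R36. JAG2 averaged 7.87 FPKM in control, 5.00 in HS0.5 libraries and 12.8 in HS0.5-R36. All 3 were lowest at the end of heat and highest at 36 h, a likeness that follows from how they were chosen.

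ADAMTS5, the main aggrecan-cutting enzyme of mouse cartilage, lies 75.2 kb from ADAMTS1 on the same strand (ENSSSCG00000012027, chromosome 13, 190361449 to 190412949). Its level was 0.00909, 0.00833 and 0 FPKM in the control libraries, 0.00910, 0.0274 and 0 in the HS0.5 libraries and 0.0131, 0.0138 and 0.00727 in the HS0.5-R36 libraries. Behind these values were 2 control reads, 4 HS0.5 reads and 5 HS0.5-R36 reads, and no library passed 3 reads. A control library with 0 reads allows a level of up to 0.0268 FPKM (3 reads, counting error only), so no difference was detectable at this depth. The neighbour ADAMTS1 had 12834 reads in the same control libraries.

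ADAMTS4 (ENSSSCG00000006359, chromosome 4, 89260460 to 89269245), another aggrecan-cutting enzyme, was likewise under the filter of 1 FPKM in 3 libraries. Its reads numbered 3, 0 and 5 in the control libraries, 1, 4 and 0 in the HS0.5 libraries and 8, 15 and 9 in the HS0.5-R36 libraries. All 3 recovered libraries lay above every other library. Groups did not overlap for 66.9% of all tested genes in HS0.5-R36 against control and for 75.2% in HS0.5-R36 against HS0.5. The ratio of FPKM from pooled reads was 3.14 for HS0.5-R36 to control (95% exact interval 1.42 to 7.89, counting error only). In the fit with no filter on low values the change was 0.11 log2 (limma adjusted p = 0.049), and 8443 of 20681 genes passed in that fit. The sources used here do not say whether counting used the strand, so reads from the other strand cannot be told apart, and this bears most on a gene with so few reads.

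ADAMTS9 (ENSSSCG00000011496, chromosome 13, 46034816 to 46207006, minus strand), a versican-cutting protease related to the nematode gonad protease GON-1, had a level of 2.20, 0.929 and 1.95 FPKM in the control libraries. It was 1.71, 1.37 and 1.59 in the HS0.5 libraries and 6.07, 5.92 and 5.63 in the HS0.5-R36 libraries. The recovered libraries lay above all others, and HS0.5 overlapped control. Of all tested genes, 66.9% did not overlap between HS0.5-R36 and control, and 75.2% between HS0.5-R36 and HS0.5. In HS0.5-R36 the mean was 5.87 ± 0.22 FPKM, against 1.69 ± 0.67 in control (SD, n = 3 each), which is 3.47 times as high. The rise was 1.39 ± 0.17 log2 (SE, limma adjusted p = 8.9e-05).

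With 11856 bases ADAMTS9 was the longest member, and control replicate 2 held 0.448 times the mean of the other controls. Without that library the rise at 36 h was 1.16 log2 (limma adjusted p = 5.7e-06). In the voom fit, which adds no 1 to the FPKM and also scales libraries by recovered reads, it was 2.23 (3.5e-05). That value was 1.98 above the median of all genes in that fit, compared with 1.45 above it in the deposited scale. With 0.1 added to the FPKM in place of 1, the rise was 1.82 (0.0003). The rise was 1.29 once the trend with gene length was taken out of each library (9e-06). At the end of heat the difference was -0.04 log2 with a 95% interval of -0.42 to 0.34 (limma adjusted p = 0.87). Among the nearest genes in course were the phosphatase gene PPM1H (distance 0.260) and the junction gene CGNL1 (0.260). CGNL1 averaged 27.4 FPKM in control, 27.8 in HS0.5 libraries and 72.2 in HS0.5-R36.

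MMP14 (ENSSSCG00000002039, chromosome 7, 76174500 to 76185923, minus strand), the membrane-type metalloproteinase, had a level of 8.88, 8.39 and 8.15 FPKM in the control libraries, 7.54, 6.63 and 6.20 in the HS0.5 libraries and 15.2, 16.0 and 17.3 in the HS0.5-R36 libraries. The groups did not overlap. In HS0.5-R36 the mean was 16.1 ± 1.0 FPKM, against 8.47 ± 0.37 in control (SD, n = 3 each), a rise of 0.85 ± 0.09 log2 (SE, limma adjusted p = 3e-05). In HS0.5 the difference from control was -0.29 log2 (95% interval -0.48 to -0.09), which did not pass (limma adjusted p = 0.095). Library weights alone brought that difference past the threshold (-0.33, 0.0018), a setting in which 5163 of 11479 tested genes passed. Groups that do not overlap were common here, with 40.5% of tested genes in HS0.5 against control. The share was 66.9% in HS0.5-R36 against control and 75.2% in HS0.5-R36 against HS0.5.

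MMP14 overlaps SLC7A7 on the other strand. SLC7A7 averaged 3.53 FPKM in HS0.5-R36 and 0.582 in control, and its part in the MMP14 value was not tested.

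PLAU (ENSSSCG00000010312, chromosome 14, 76629299 to 76635172, plus strand) encodes urokinase and was the member with the largest change. Its level was 180, 208 and 179 FPKM in the control libraries, 186, 185 and 196 in the HS0.5 libraries and 19.7, 21.2 and 21.0 in the HS0.5-R36 libraries. HS0.5 lay within the control range, and the recovered libraries lay far below both. Groups did not overlap for 66.9% of all tested genes in HS0.5-R36 against control. In HS0.5-R36 the mean was 0.109 times that of control, and PLAU fell by 3.13 ± 0.08 on the log2 scale (SE, limma adjusted p = 4.1e-08). The values rest on 3794 reads in HS0.5-R36 and 27396 in control. At the end of heat the difference was 0.00 log2 with a 95% interval of -0.19 to 0.19 (limma adjusted p = 0.99).

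Nearest to PLAU in course were VGF, a gene of a secreted neuropeptide precursor (distance 0.372), the semaphorin gene SEMA7A (0.467) and PREX1, a guanine exchange factor (0.525). VGF averaged 125 FPKM in control, 110 in HS0.5 libraries and 11.9 in HS0.5-R36. SEMA7A averaged 7.20 FPKM in control, 7.59 in HS0.5 libraries and 0.152 in HS0.5-R36.

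TIMP1 (ENSSSCG00000012277, chromosome X, 42102172 to 42106297, plus strand), a secreted inhibitor of most metalloproteinases, had a level of 106, 192 and 120 FPKM in the control libraries. It was 129, 125 and 117 in the HS0.5 libraries and 37.6, 38.3 and 38.9 in the HS0.5-R36 libraries. The recovered libraries lay below all others, where 66.9% of all tested genes did not overlap control and 75.2% did not overlap HS0.5. In HS0.5-R36 the mean was 38.3 ± 0.7 FPKM, against 139 ± 46 in control (SD, n = 3 each), and TIMP1 fell by 1.79 ± 0.18 log2 (SE, limma adjusted p = 3.3e-05).

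TIMP1 was the shortest member, with 1038 bases, and control replicate 2 held 1.70 times the mean of the other controls. Without that library the fall at 36 h was -1.53 log2 (limma adjusted p = 6.3e-07). The difference at the end of heat was -0.12 log2 (limma adjusted p = 0.65), and its sign turned without control replicate 2 (0.13, 0.26). TIMP1 overlaps SYN1 on the other strand, which averaged 1.09 FPKM in HS0.5-R36 and 0.467 in control.

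TIMP2 (ENSSSCG00000017164, chromosome 12, 3254493 to 3300835, plus strand), the inhibitor that also bridges MMP14 and MMP2, had a level of 17.0, 17.3 and 16.8 FPKM in the control libraries. It was 15.5, 16.5 and 17.0 in the HS0.5 libraries and 26.8, 27.4 and 26.1 in the HS0.5-R36 libraries. Only the recovered libraries lay apart, where 66.9% of all tested genes did not overlap control and 75.2% did not overlap HS0.5. In HS0.5-R36 the mean was 26.8 ± 0.7 FPKM, against 17.0 ± 0.2 in control (SD, n = 3 each), a rise of 0.63 ± 0.07 log2 (SE, limma adjusted p = 4e-05). With rescaled libraries the rise was 0.99, 0.73 above the median of all genes, compared with 0.69 above it in the deposited scale. At the end of heat the difference was -0.05 log2 (95% interval -0.20 to 0.10, limma adjusted p = 0.6).

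TIMP3 (ENSSSCG00000031866, chromosome 5, 12185816 to 12242637, minus strand), the matrix-bound inhibitor of ADAMTS proteases, had a level of 85.1, 71.4 and 90.9 FPKM in the control libraries. It was 94.6, 99.0 and 98.2 in the HS0.5 libraries and 52.9, 50.5 and 51.1 in the HS0.5-R36 libraries. HS0.5 lay highest and HS0.5-R36 lowest, with no overlap between groups. Of all tested genes, 40.5% did not overlap in HS0.5 against control and 66.9% in HS0.5-R36 against control. In HS0.5 against control the difference was 0.24 log2 (95% interval 0.03 to 0.46), which did not pass (limma adjusted p = 0.14).

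In HS0.5-R36 TIMP3 averaged 51.5 ± 1.3 FPKM, against 82.5 ± 10.0 in control (SD, n = 3 each), and it fell by 0.66 ± 0.09 log2 (SE, limma adjusted p = 0.00024). This call depended on the scaling between libraries. The fall was -0.32 log2 with libraries rescaled to the same sum (limma adjusted p = 0.07) and -0.11 after quantile normalization (0.49), and the voom fit on recovered reads gave -0.35 (0.016). Rescaling moved the median of all genes by 0.32 log2, and TIMP3 stood at -0.58 relative to that median after rescaling and at -0.60 in the deposited scale. Against HS0.5, with 97.3 ± 2.3 FPKM (SD, n = 3), TIMP3 fell by 0.90 ± 0.09 log2 (SE, limma adjusted p = 3.2e-05), a call kept under all 20 other settings. The size of that fall depended on the scaling, at -0.57 after rescaling, -0.41 after quantile normalization and -0.55 in the voom fit.

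**Figure D2:**
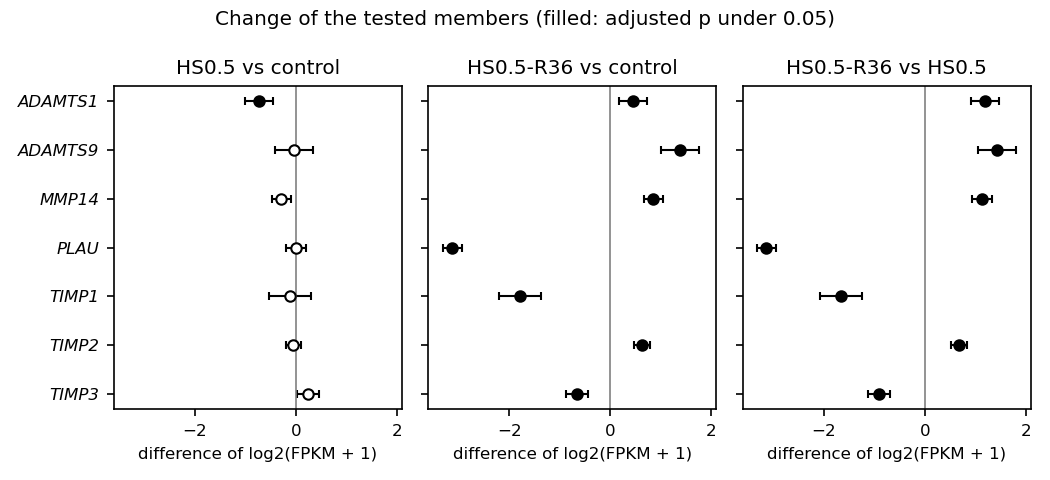
Difference of log2(FPKM + 1) for the 7 tested members in each comparison (x axis), with 95% intervals from limma; filled points passed an adjusted p of 0.05. In HS0.5 against control only ADAMTS1 passed, at -0.73, whereas all 7 passed in HS0.5-R36 against control (63.1% of all genes did), from -3.13 for PLAU to 1.39 for ADAMTS9.

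In HS0.5-R36 against control, 4 of 7 members rose and 3 fell, and 28.5% of all tested genes rose and 34.6% fell. The share of members changed, 7 of 7, stands beside 63.1% of all genes. The median change of the members was 0.45 log2, beside -0.06 for all tested genes. In HS0.5-R36 against HS0.5, 7 of 7 members again changed, beside 63.8% of all genes: 4 rose and 3 fell, beside 28.8% and 35%. In that comparison MMP14 rose by 1.14, ADAMTS9 by 1.43 and TIMP2 by 0.68 log2, while TIMP1 fell by 1.66 and PLAU fell by 3.13 log2 (limma adjusted p at most 6.7e-05), and HS0.5-R36 overlapped HS0.5 for none of the 7, where 75.2% of all tested genes did not overlap. The TIMP2 rise was 1.04 with rescaled libraries, and the ADAMTS9 rise was 2.29 in the voom fit. Both comparisons share the HS0.5-R36 libraries.

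The summed level of TIMP1, TIMP2 and TIMP3 was 208 to 280 FPKM in control, 232 to 240 in HS0.5 libraries and 116 to 117 in HS0.5-R36. TIMP1 made up 32.8% of that sum in HS0.5-R36 and 57.3% in control. The 4 ADAMTS genes summed to 39.9 to 54.1 FPKM in control, 27.1 to 31.3 in HS0.5 libraries and 65.6 to 74.5 in HS0.5-R36, of which ADAMTS1 was 91.5% in HS0.5-R36 and 96.6% in control.

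Ratios of genes within a library do not depend on scaling between libraries. The summed ADAMTS level was 0.635, 0.560 and 0.589 times that of TIMP3 in the control libraries, 0.331, 0.306 and 0.276 times in the HS0.5 libraries and 1.24, 1.48 and 1.42 times in the HS0.5-R36 libraries. ADAMTS transcripts thus exceeded those of TIMP3 per length in all 3 recovered libraries and in none of the other 6. The mean log2 ratio was -1.72 in HS0.5 and -0.75 in control, a difference of -0.97, and it was 0.46 in HS0.5-R36.

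MMP14 stood at 0.524, 0.486 and 0.486 times TIMP2 in the control libraries, 0.485, 0.401 and 0.365 times in the HS0.5 libraries and 0.568, 0.582 and 0.661 times in HS0.5-R36. The ratio was highest in HS0.5-R36, and one HS0.5 library reached nearly the lowest control library. The log2 ratio in HS0.5-R36 exceeded that in control by 0.27, a smaller difference than the rise of either gene alone.

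TIMP1 stood at 6.24, 11.099 and 7.17 times TIMP2 in the control libraries, 8.30, 7.54 and 6.87 times in the HS0.5 libraries and 1.40, 1.40 and 1.49 times in those of HS0.5-R36. The recovered libraries lay below all others, with a log2 ratio of 0.52 in HS0.5-R36 and 2.99 in control. An exact two-sided permutation test of 3 against 3 libraries cannot go below p = 0.1. It gave that p for MMP14 to TIMP2 in each comparison and for TIMP1 to TIMP2 in both comparisons with HS0.5-R36 (adjusted p = 0.12 over 12 comparisons of ratios, some of which are not reported here). For TIMP1 to TIMP2 in HS0.5 against control the exact permutation p was 0.9.

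**Figure D3:**
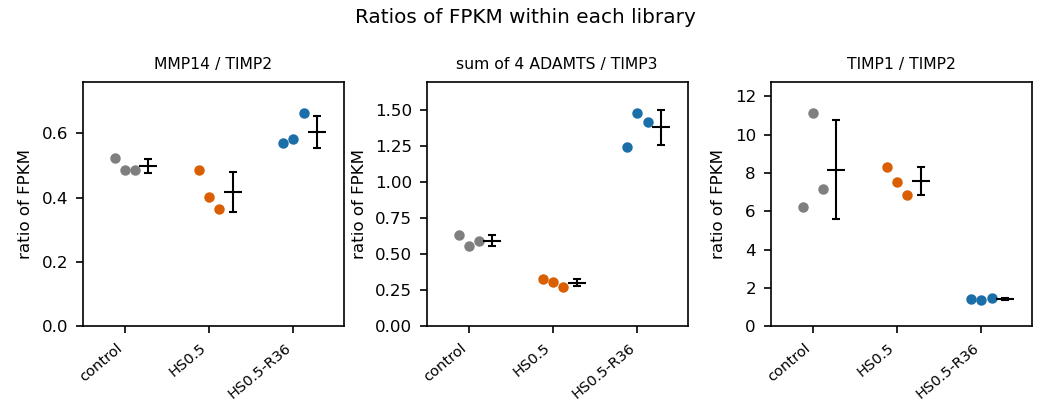
Ratios of FPKM within each library (linear axes from 0) for control, HS0.5 and HS0.5-R36; coloured points are replicates 1 to 3 and black marks the mean with the SD of 3 libraries. The ratio of the 4 summed ADAMTS genes to TIMP3 is 0.276 to 0.331 in HS0.5 and 1.24 to 1.48 in HS0.5-R36, and the ratio of TIMP1 to TIMP2 is 1.40 to 1.49 in HS0.5-R36.

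The related genes are read against all 11479 tested genes, of which 28.5% rose and 34.6% fell in HS0.5-R36 against control, with a median of -0.06 log2. Of 6 tested genes of the plasminogen system, PLAU aside, 5 fell in that comparison and none rose, with a median of -2.12 log2. None of the 6 passed in HS0.5 against control. PLAUR, the urokinase receptor, averaged 7.08 ± 0.43 FPKM in HS0.5-R36, against 107 ± 18 in control (SD, n = 3 each), and fell by 3.72 log2 (limma adjusted p = 8.4e-08).

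SERPINE2, the inhibitor protease nexin-1, fell by 2.74 log2 (limma adjusted p = 1.3e-07). PLAT, the tissue-type activator, fell by 1.51 (1.4e-06), and SERPINF2, the plasmin inhibitor, by 0.36 (0.046), both named after their values were seen. The SERPINF2 call ended in 13 of 20 other settings, among them leaving out control replicate 2 or any of the HS0.5 and HS0.5-R36 libraries (limma adjusted p of 0.052 to 0.86 over the 13). Its sign turned after quantile normalization (0.085, 0.51).

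**Figure D4:**
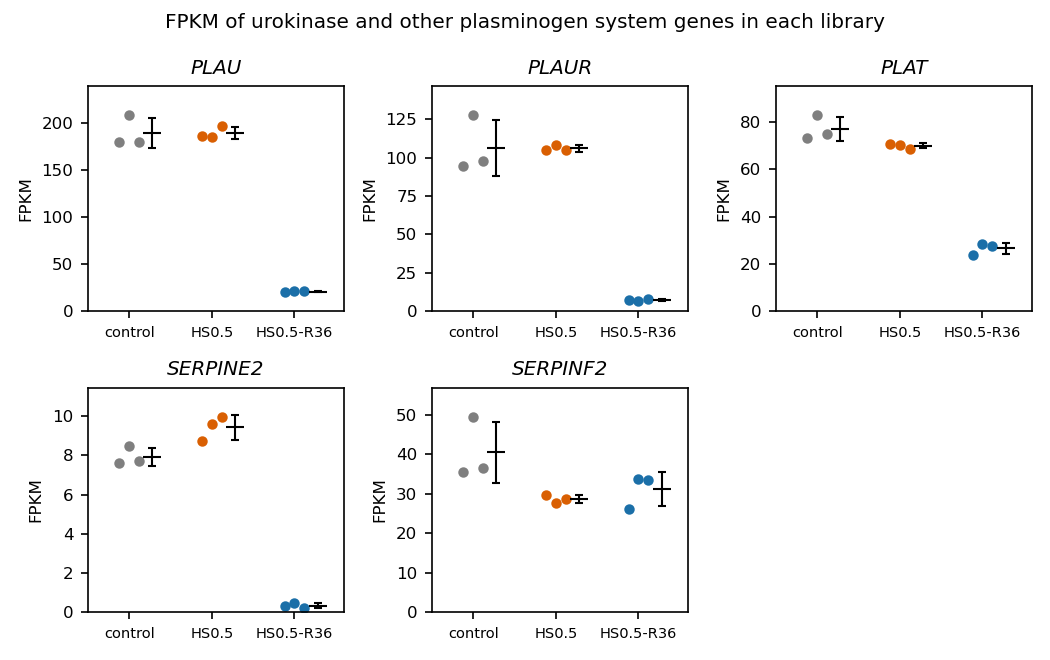
FPKM (linear axes from 0) of PLAU, its receptor PLAUR, the activator PLAT and the inhibitors SERPINE2 and SERPINF2 in each library of control, HS0.5 and HS0.5-R36; coloured points are replicates 1 to 3 and black marks the mean with the SD of 3 libraries. PLAU, PLAUR, PLAT and SERPINE2 lie lowest in HS0.5-R36, whereas SERPINF2 in HS0.5-R36 overlaps HS0.5.

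Of 20 other matrix metalloproteinases listed, 14 had a row and 4 were tested. Beside the 28.5% of all genes that rose and the 34.6% that fell, 3 of the 4 rose in HS0.5-R36 against control and none fell, with a median of 0.47 log2: MMP11 by 0.67, the membrane-type MMP15 by 0.50 and MMP19 by 0.44 log2 (limma adjusted p of 0.0015, 0.002 and 0.0032). MMP11 averaged 22.1 ± 3.7 FPKM in HS0.5-R36, against 13.4 ± 0.8 in control (SD, n = 3 each). None of the 4 changed in HS0.5.

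In the list of other ADAMTS and ADAMTS-like genes, 20 of 21 had a row and 5 were tested, of which 1 rose and 3 fell in HS0.5-R36 against control, with a median of -0.50 log2 (28.5% of all genes rose and 34.6% fell). ADAMTS10, which acts on fibrillin, rose by 0.90 log2 (limma adjusted p = 4.2e-05), to 6.09 FPKM in HS0.5-R36, against 2.81 in control. ADAMTS2, which trims procollagen, fell by 0.50 (0.0032), a call that ended with rescaled libraries (-0.23, 0.27) and in the voom fit (-0.26, 0.14).

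Of 7 tested ADAM membrane proteases, 2 rose and 3 fell, with a median of -0.10 log2, shares near those of all genes (28.5% and 34.6%). ADAM8 fell by 2.04 log2 (limma adjusted p = 3.1e-06), to 5.09 FPKM in HS0.5-R36, against 23.9 in control. ADAM10, ADAM9 and ADAM17 passed with changes of 0.34, -0.55 and -0.35 (0.0496, 0.029 and 0.039). Those calls ended in 12, 9 and 13 of 20 other settings, among them leaving out HS0.5-R36 replicate 2 or 3 for each gene, control replicate 1 or 3 for ADAM9 and ADAM17, control replicate 2 for ADAM10, and HS0.5-R36 replicate 1 or any HS0.5 library for ADAM10 and ADAM17 (limma adjusted p of 0.050 to 0.77 over these settings).

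Of 7 other protease inhibitors tested, 3 rose and 1 fell, with a median of 0.14 log2 (28.5% of all genes rose and 34.6% fell). TIMP4, the remaining TIMP, rose by 1.80 log2 (limma adjusted p = 1.6e-06), to 7.40 ± 0.53 FPKM in HS0.5-R36, against 1.42 ± 0.22 in control (SD, n = 3 each). SPINT1, an inhibitor of serine proteases of epithelia, rose by 0.53 (0.00031). CST3, which encodes cystatin C, passed at -0.51 (0.033), but the call ended in 8 of 20 other settings, among them leaving out any HS0.5-R36 library (0.064 to 0.083) and all 3 other scalings.

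Of 6 tested convertases and partners, 1 rose and 4 fell, with a median of -0.42 log2, beside 28.5% and 34.6% of all genes. CD44, a hyaluronan receptor that MMP14 cuts, fell by 1.45 log2 (limma adjusted p = 1.1e-06). CAV1, which encodes the caveolar coat protein caveolin-1, fell by 0.78 (0.00063), with the call lost after rescaling (-0.45, 0.057), and the convertase gene PCSK7 by 0.53 (0.0015), lost after rescaling and in the voom fit (-0.21 and -0.24, 0.11 and 0.072). Of 9 tested substrates, 3 fell and none rose, with a median of -0.16 log2, beside the same shares of all genes. THBS1, a matrix protein that ADAMTS1 cuts, fell by 1.37 (0.00011), to 740 FPKM in HS0.5-R36, against 1948 in control. BGN, the gene of the proteoglycan biglycan, fell by 1.40 (6.6e-06) at a level of 0.876 FPKM in HS0.5-R36 and 3.99 in control, and was named after its values were seen. FMOD, that of fibromodulin, fell by 0.29 (0.0044) in the deposited scale, but its sign turned after rescaling (0.053), after quantile normalization (0.18) and in the voom fit (0.029).

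**Figure D5:**
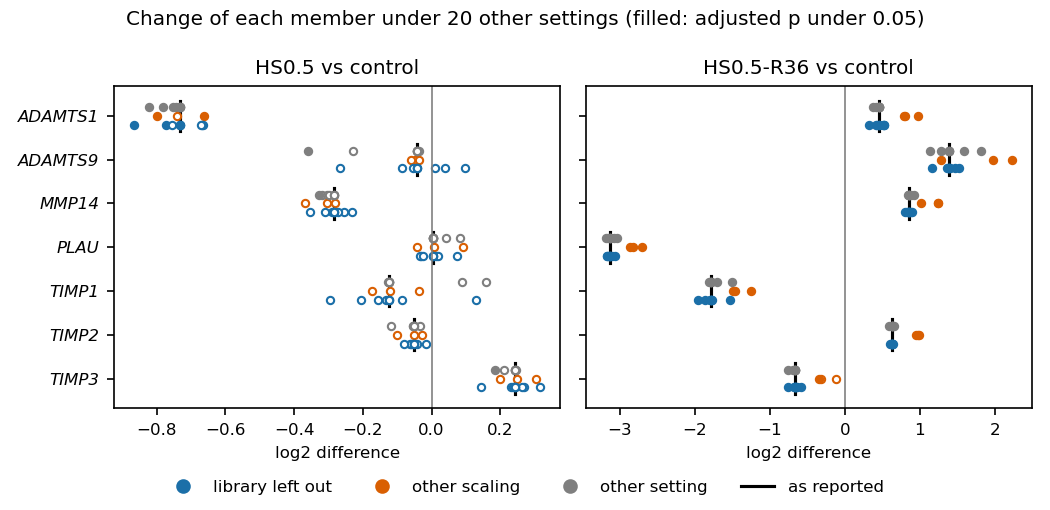
Log2 difference (x axis) of the 7 tested members in HS0.5 against control and HS0.5-R36 against control under 20 other settings: each library left out, other scalings and other settings; the black line is the value as reported and filled points passed an adjusted p of 0.05. ADAMTS1 stays between -0.87 and -0.66 in HS0.5, and TIMP3 between -0.76 and -0.11 in HS0.5-R36.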

How the data were processed

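RNA was isolated with Trizol and sequenced in 9 libraries, 3 a group. bcl2fastq made the base calls and HISAT2 2.0.5 the alignments, per the submitters' processing notes; the genome build and the counting program are not given in the sources used here. The authors deposited FPKM for 20681 genes and each gene's length (bp), per the file headers. The table has 8 lines without values, which were not used here. FPKM times gene length was a whole multiple of a constant in every library (100% of values, tolerance 1e-06), so reads could be recovered. The FPKM imply library sizes of 0.902 to 0.973 times these reads in control and HS0.5 and 1.17 to 1.19 times in HS0.5-R36, so the authors had scaled the libraries.

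Genes with at least 1 FPKM in 3 of 9 libraries were tested (11479). With limma 3.58.1 in R 4.3.3, log2(FPKM + 1) was fitted with a mean per group over all 9 libraries, with the intensity trend, two-sided, and adjusted by Benjamini-Hochberg over all genes at 0.05. The added 1 pulls changes of low genes towards 0. Intervals on reads are exact binomial ones at 95%.

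Genes were matched by symbol. All members were named. Of each related list, up to 3 rises and 3 falls that passed at 36 h with at least 5 FPKM in 1 group were named, with any gene that passed in HS0.5 against control (none did). For ADAMTS1 and the members that rose and fell most, the 3 nearest genes were named. The members and lists were chosen with earlier results of these data known. The ratios planned with MMP2 could not be computed. Alternatives covered pseudocounts, filters, scalings, gene length, library weights, fewer groups, replicate blocks and each library left out. Results that need certain genes are not reported here.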

Additional observations from a re-analysis of the deposited data

How the results depend on the processing

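Of 21 member changes over the 3 comparisons, 14 kept their direction and their side of the threshold in all 20 other settings. The exceptions were the fall of ADAMTS1 in HS0.5 (lost in 5 settings), the fall of TIMP3 in HS0.5-R36 against control (lost in 2), and differences in HS0.5 against control that did not pass as reported. There, library weights called ADAMTS9 (-0.36, limma adjusted p = 0.0033), TIMP3 and MMP14, and the cause was not tested. That setting called 5163 of all 11479 tested genes. It weighted HS0.5 replicate 2 at 8.88 and control replicate 2 at 0.0651. Signs of changes near 0 turned in HS0.5 against control: ADAMTS9 (-0.04) ran from -0.27 to 0.10 as libraries were left out; TIMP1 (-0.12) ran from -0.30 to 0.13, and was 0.090 with the length trend removed and 0.16 with library weights; and PLAU (0.00) ran from -0.034 to 0.073, and was -0.042 in the voom fit. The log2 ratio of TIMP1 to TIMP2 in HS0.5 against control, -0.07, ran from -0.24 to 0.17 as libraries were left out. At 36 h against control FMOD turned to 0.053, 0.18 and 0.029 (rescaling, quantile normalization, voom) and SERPINF2 to 0.085 (quantile normalization).

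The count of genes changed in HS0.5 against control was 415, and 3487 had an unadjusted p under 0.05. It was 193 with no filter, 243 with a filter of 5 FPKM, 191 after rescaling, 5163 with library weights and 116 with only the compared groups, and 88 to 457 as libraries were left out (88 to 214 without control replicate 1, any HS0.5 replicate, or HS0.5-R36 replicate 2 or 3). Rises made up 63.4% of these calls, 51.8% after rescaling, 50.2% in the voom fit and 51.2% with library weights. With the replicate number as a block it was 221, with 1 of 7 members still called. No pairing by number was seen: same-numbered libraries correlated at -0.43 to 0.26 after group means were removed, and 2 of 9 matched best with their own number. With 3 libraries a group, this check cannot exclude a shared culture or day. The counts at 36 h stayed within 1.5 times, but rises made up 45.2% of calls against control as deposited, 68.6% after rescaling, 67.7% in the voom fit, 50.5% after quantile normalization, 33.7% with a filter of 5 FPKM and 53.4% with no filter. The median change of all genes at 36 h shifted by 0.32 log2 after rescaling, 0.31 in the voom fit and -0.14 with the filter of 5 FPKM. A voom fit with TMM factors was not run. With 3 libraries a group, no ratio could pass an exact test. ADAMTS4 and ADAMTS5 are limited by depth.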
